A study of Homo sapiens with 4 samples.

Results

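The endoplasmic reticulum (ER) folds, modifies and checks proteins bound for the cell surface, the secretory pathway or export. 35 genes of ER protein folding, degradation and stress signalling were followed in 2 human gastric cancer cell lines treated with the cardiac glycoside periplocymarin. They were named for their function, not picked by a threshold on their values, though they were chosen with earlier results of these data known. All 35 were found by Ensembl gene ID among the 62710 genes of the table. They fall into 8 roles, namely Hsp70 and Hsp90 chaperones with their co-chaperones, lectin chaperones, disulfide isomerases, oxidases, secreted folding factors, ER-associated degradation, the SEC61 channel, and stress sensors with their transcription factor.

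When unfolded proteins build up in the ER, 3 sensors in its membrane start the unfolded protein response. IRE1 (encoded by ERN1) splices the mRNA of XBP1 into a form that encodes an active transcription factor, ATF6 is cut to release another, and PERK slows translation, which favours ATF4. The first 2 arms raise chaperones, isomerases and degradation factors, while ATF4 acts mainly on amino acid supply and, when stress lasts, on cell death genes. ERN1, XBP1 and ATF6 are among the 35 genes, and PERK, ATF4 and their targets were examined as a neighbouring list. Gene-level values count spliced and unspliced XBP1 together, so they carry no measure of IRE1 activity.

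Polyadenylated RNA was sequenced from HGC27, a line from a lymph node metastasis of a gastric carcinoma, and from MKN45, a line from a poorly differentiated gastric adenocarcinoma. Treated cells of each line received 0.3 µM periplocymarin for 24 h and control cells received 0.1% DMSO, the vehicle, all in RPMI-1640 medium with serum. Periplocymarin belongs to a class of plant steroids that bind the Na,K-ATPase, the pump that keeps sodium low and potassium high inside cells. Each of the 4 groups (treated HGC27, vehicle HGC27, treated MKN45 and vehicle MKN45) had 1 library.

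Values are FPKM, that is reads per length of the gene and per size of the library, as deposited. A difference is the treated value less the vehicle value of log2(FPKM + 1), a scale on which low genes appear to change less than they do. Within a line there was 1 library per treatment and therefore no test, and a gene counted as measured where its 2 libraries averaged 1 FPKM or more. Over both lines a test was possible with the lines as the units of each arm, using limma with cell line as a block and Benjamini-Hochberg adjustment over all 12353 genes tested. A gene is said to have risen or fallen where its adjusted p was under 0.05, and limma's moderated standard error follows the ± sign. That error borrows heavily from the other genes, with 1 residual degree of freedom of the gene's own beside 8.53 prior ones. Nothing in the labels says whether the libraries came from separate experiments, so the p-values measure only the disagreement between these 2 lines.

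Between 24744919 and 36187299 reads were recovered per library from the deposited values. The 5 epithelial markers examined (EPCAM, KRT8, KRT18, KRT19 and CDH1) were all under 1 FPKM in HGC27, with a sum of 0.399 FPKM in the treated and 0.580 FPKM in the vehicle library and 1 of the 5 at 0 in the treated library, so the defining epithelial markers of the labelled gastric cancer cells were near 0 there. In MKN45 all 5 were expressed, at a sum of 2864 FPKM in treated and 1598 FPKM in vehicle cells. Summed mesenchymal markers were at 399 and 425 FPKM in treated and vehicle HGC27, and fibroblast markers at 193 and 93.0 FPKM, against under 1 FPKM for either list in MKN45. Leukocyte markers came to at most 0.357 FPKM in HGC27 and, through the single gene LYZ, to 125 FPKM in treated and 161 FPKM in vehicle MKN45, while endothelial markers did not exceed 0.0245 FPKM in any library. The part of these shifts in the results was not tested. Fewer cells and less RNA per cell cannot be told apart in such bulk libraries.

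Over both lines 1 of the 33 ER genes tested rose and 1 fell, against 3.43% and 3.17% of all genes tested. These shares lie near the background. The gene that rose was DNAJC3, a co-chaperone that also inhibits PERK, and the gene that fell was XBP1. The other 31 did not pass, ERO1B was under the level needed for the test, and DERL3 was listed at 0 in all 4 libraries. At an unadjusted p under 0.05, 8 of the 33 were higher and 4 lower, against 1959 and 1552 of all 12353 genes tested. The median fitted log2 fold of the 33 was 0.23, with 21 above 0, against a median of 0.06 for all genes tested and 0.38 for the 4453 genes averaging 10 FPKM or more, where 8.02% rose and 1.82% fell. Of all 12353 genes tested 6667 were above 0, and of those 4453 genes 3317 were, which is the background for each count above 0 below. Scaling mattered for these directions: 13 of the 33 were above 0 with quantile normalization, where the median of all genes was 0.02. With libraries scaled to their totals alone 15 were above 0, a setting that put the median of all genes at -0.16. In both none of the 33 rose and 3 fell (XBP1, SEL1L and HERPUD1).

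**Figure D1:**
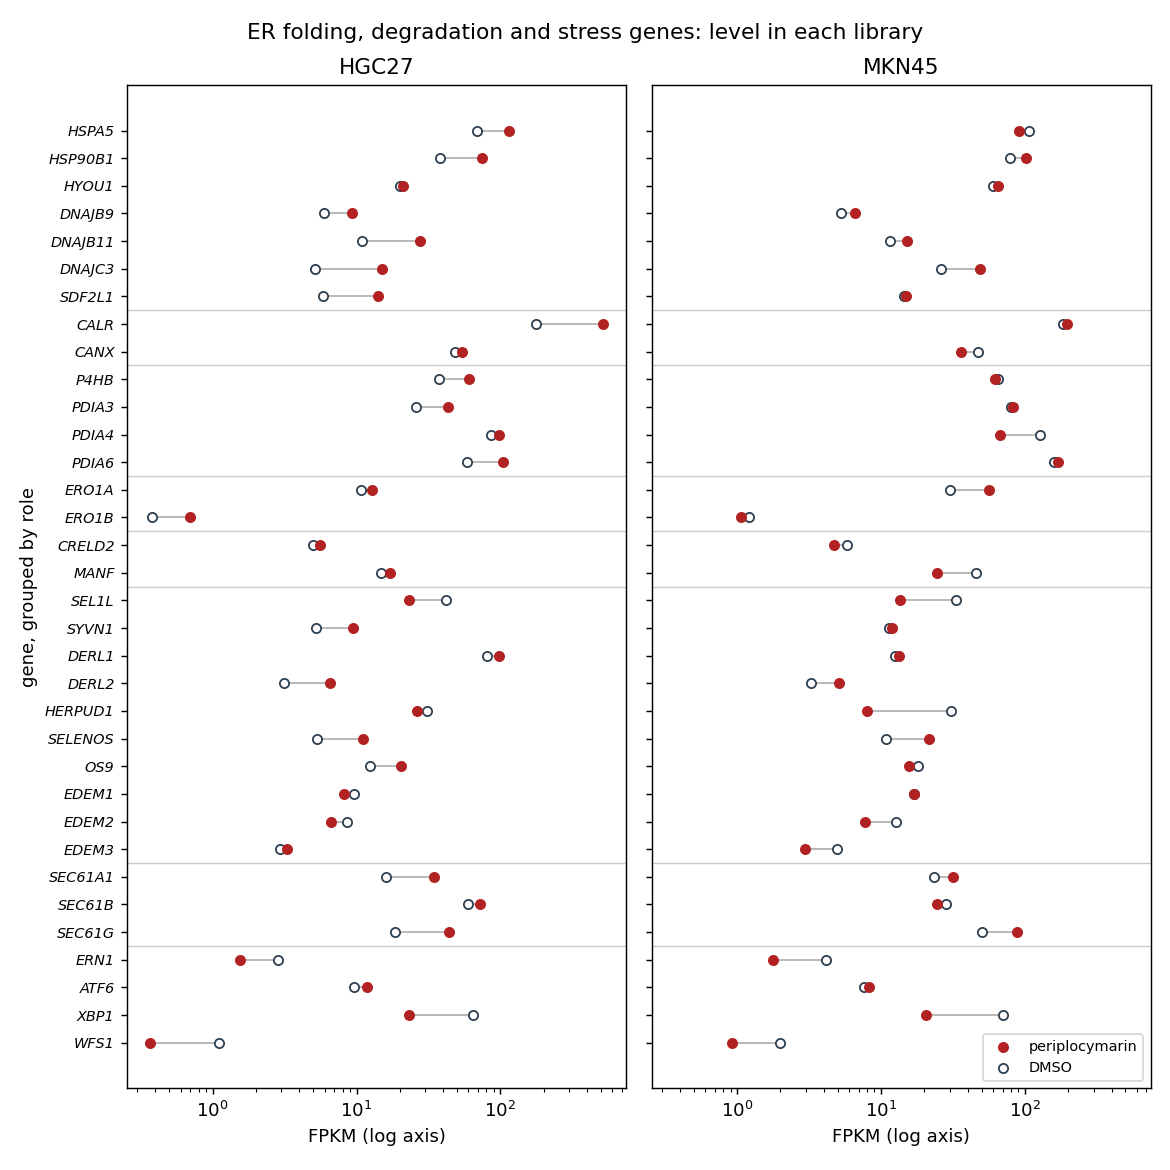
FPKM (log axis) of 34 ER genes in periplocymarin-treated (filled) and vehicle (open) libraries of HGC27 (left) and MKN45 (right), 1 library per point, grouped by role from the Hsp70 and Hsp90 system at the top to the stress sensors at the bottom. DERL3, listed at 0, is left out. CALR reached 519 FPKM in treated against 177 FPKM in vehicle HGC27, and XBP1 lay lower after treatment in both lines.

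XBP1 (ENSG00000100219, hg38 chr22:28794555-28800597, minus strand), the transcription factor of the IRE1 arm, showed the strongest evidence of change. It stood at 23.3 FPKM in treated and 64.3 FPKM in vehicle HGC27. In MKN45 it stood at 20.5 FPKM in treated and 69.9 FPKM in vehicle cells. Both treated libraries lay below both vehicle libraries, and among the 35 genes XBP1 ranked 15 and 17 in treated HGC27 and MKN45, against 5 and 7 in vehicle HGC27 and MKN45. The treated over vehicle ratio was 0.363 in HGC27 (95% counting interval 0.344 to 0.383) and 0.292 in MKN45 (0.276 to 0.309). Such intervals cover counting error only, since no molecular identifiers were given. Over both lines XBP1 fell by 1.57 ± 0.28 on the log2 scale (limma adjusted p = 0.0247). The call held in 6 of 8 other settings, which gave adjusted p from 5.18e-05 to 0.828, and was lost without the low-value filter (32364 genes tested, 0 called) and without the line block (0 called).

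The promoter of XBP1 is shown because XBP1 is the member that fell and because it carries the ER stress response element, to which ATF6 binds together with NF-Y. RefSeq windows on GRCh38.p14 run from 250 bases before to 50 after an annotated start and are written 5′ to 3′ on the strand of the gene, with the matched letters in capitals. The XBP1 window is chr22:28800520-28800819 on the minus strand, and its element starts 52 bases before the annotated start.
XBP1: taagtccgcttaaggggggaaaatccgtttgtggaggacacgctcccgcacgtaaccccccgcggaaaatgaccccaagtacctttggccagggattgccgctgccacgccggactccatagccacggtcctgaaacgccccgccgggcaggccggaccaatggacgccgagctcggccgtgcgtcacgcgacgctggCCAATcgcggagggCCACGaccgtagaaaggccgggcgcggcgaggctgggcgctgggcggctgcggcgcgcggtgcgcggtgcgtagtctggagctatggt
The element matched in full was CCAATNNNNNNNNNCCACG, searched on both strands.

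That element occurred in 27 of 35116 windows of all RefSeq genes (0.0769%), and 10 of those 27 windows belonged to 8 of the 35 genes. The element is named for the ER stress response, so its presence before ER genes is not a result of these data. A second form, ATTGGNCCACG, occurred in 19 windows (0.0541%), 3 of them of HERPUD1, HYOU1 and SDF2L1. Windows were on hand for 32 of the 35 genes, and PDIA3, DERL1 and DERL3 had no entry. The sites of the chaperones and of the degradation factor HERPUD1 are set beside that of XBP1 because the same short letters stand before members with differences of opposite sign. They are given on the strand on which the motif reads as above, with its fixed letters in capitals.
XBP1: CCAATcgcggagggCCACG
HSPA5: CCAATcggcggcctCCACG
CALR: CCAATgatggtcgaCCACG
CANX: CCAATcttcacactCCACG
PDIA6: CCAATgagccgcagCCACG
HSP90B1: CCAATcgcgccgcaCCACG
HSP90B1, second site: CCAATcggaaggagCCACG
HERPUD1: ATTGGgCCACG
HYOU1: ATTGGaCCACG
SDF2L1: ATTGGtCCACG
CRELD2 and ERO1B also held the first form. A shorter element, TGACGTGG, occurred in 256 windows (0.729%), of which 1 was that of HYOU1, where it overlaps the second form. The 10 tested genes with the first or second form had a median fitted log2 fold of 0.17, with 6 above 0, and the 21 tested genes with a window and neither form had a median of 0.23, with 13 above 0. A match in letters is a description of the window and not a measure of binding.

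ERN1, the gene of IRE1, the enzyme that splices XBP1, stood at 1.55 FPKM in treated and 2.85 FPKM in vehicle HGC27, and at 1.78 FPKM in treated and 4.15 FPKM in vehicle MKN45. It was lower after treatment in both lines, with a fitted log2 fold of -0.74 ± 0.30 that did not pass (limma adjusted p = 0.144). ATF6, the sensor that is itself a transcription factor, stood at 11.8 FPKM in treated and 9.56 FPKM in vehicle HGC27, and at 8.19 FPKM in treated and 7.65 FPKM in vehicle MKN45. Its differences were small, 0.27 and 0.09. WFS1, an ER membrane protein that restrains ATF6, was at a low level, with 0.367 FPKM in treated and 1.11 FPKM in vehicle HGC27, and 0.922 FPKM in treated and 1.97 FPKM in vehicle MKN45. It was also lower in both lines and did not pass (fitted log2 fold -0.63 ± 0.32, limma adjusted p = 0.225), so of the 4 genes of this role ATF6 alone was higher in either line.

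The Hsp70 and Hsp90 system binds unfolded chains and works through ATP hydrolysis. All 7 of its genes had a fitted log2 fold above 0, with a median of 0.59, against 6667 of all 12353 genes tested and 3317 of the 4453 averaging 10 FPKM or more. Of the 7, 1 passed the test, but HSPA5 and HYOU1 turned below 0 with quantile normalization and with library totals alone. DNAJC3 (ENSG00000102580, hg38 chr13:95677139-95794989, plus strand) stood at 14.9 FPKM in treated and 5.13 FPKM in vehicle HGC27, and at 48.7 FPKM in treated and 26.3 FPKM in vehicle MKN45. The treated library was the higher in each line, though vehicle MKN45 lay above treated HGC27. DNAJC3 rose by 1.12 ± 0.29 (limma adjusted p = 0.0499), a call at the very edge of the threshold. It held in 4 of 8 other settings, which gave adjusted p from 0.00246 to 0.920, and was lost with quantile normalization and with library totals alone, where its fitted log2 fold was 0.86 in either case, and without the low-value filter or the line block. Its promoter window, chr13:95676889-95677188 on the plus strand, is shown because it is the member that rose, and it held neither form of the element nor the shorter motif, so nothing in it is in capitals.
DNAJC3: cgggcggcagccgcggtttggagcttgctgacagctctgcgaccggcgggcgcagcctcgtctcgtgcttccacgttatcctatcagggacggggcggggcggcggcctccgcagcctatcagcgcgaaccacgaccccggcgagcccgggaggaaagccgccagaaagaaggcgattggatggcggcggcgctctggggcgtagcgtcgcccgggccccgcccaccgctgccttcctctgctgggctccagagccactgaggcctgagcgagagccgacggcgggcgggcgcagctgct

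HSPA5, known as BiP or GRP78 and the Hsp70 of the ER, stood at 115 FPKM in treated and 69.0 FPKM in vehicle HGC27, and at 90.7 FPKM in treated and 107 FPKM in vehicle MKN45. It was thus 1.66-fold higher after treatment in HGC27 (95% counting interval 1.63 to 1.70) and 0.851 of the vehicle level in MKN45 (0.833 to 0.868). These intervals leave out scaling. The HSPA5 difference of 0.73 in HGC27 became 0.11 with quantile normalization and 0.38 with library totals alone. In MKN45 the difference of -0.23 became -0.57 and -0.46. HSP90B1, known as GRP94 and the Hsp90 of the ER, stood at 74.8 FPKM in treated and 38.0 FPKM in vehicle HGC27, and at 102 FPKM in treated and 78.9 FPKM in vehicle MKN45. It was higher in both lines with a fitted log2 fold of 0.66 ± 0.28 that did not pass (limma adjusted p = 0.164). HYOU1, a large Hsp70 relative that exchanges the nucleotide of BiP, differed by 0.07 in HGC27 and by 0.11 in MKN45, at 21.1 FPKM in treated and 20.1 FPKM in vehicle HGC27 and at 65.1 FPKM in treated and 60.3 FPKM in vehicle MKN45.

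The J-domain co-chaperones hand clients to BiP. DNAJB11, which works on chains as they enter the ER, stood at 27.5 FPKM in treated and 10.9 FPKM in vehicle HGC27, and at 15.1 FPKM in treated and 11.6 FPKM in vehicle MKN45. DNAJB9, a co-chaperone that holds IRE1 inactive, stood at 9.28 FPKM in treated and 5.94 FPKM in vehicle HGC27, and at 6.61 FPKM in treated and 5.24 FPKM in vehicle MKN45. SDF2L1, a partner of DNAJB11, stood at 14.2 FPKM in treated and 5.82 FPKM in vehicle HGC27, and at 14.8 FPKM in treated and 14.5 FPKM in vehicle MKN45. The 3 were higher in treated cells of both lines and none passed, and for SDF2L1 the counting interval of the MKN45 ratio (0.892 to 1.16) included 1. DNAJB11 came nearest, with a fitted log2 fold of 0.81 ± 0.31 (limma adjusted p = 0.130).

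Calreticulin (CALR, ENSG00000179218, hg38 chr19:12938578-12944489, plus strand), a calcium-binding chaperone that holds glycoproteins by their sugars, was the highest of the 35 genes per length in all 4 libraries. It reached 519 FPKM in treated HGC27, against 177 FPKM in vehicle HGC27. In MKN45 it stood at 197 FPKM in treated and 184 FPKM in vehicle cells, so treated HGC27 stood apart from the other 3 libraries. The ratio was 2.94 in HGC27 (95% counting interval 2.88 to 3.0) and 1.07 in MKN45 (1.05 to 1.1), and the fitted log2 fold of 0.82 ± 0.35 did not pass (limma adjusted p = 0.158). Calnexin (CANX), its membrane-bound relative, stood at 54.0 FPKM in treated and 48.5 FPKM in vehicle HGC27, and at 36.2 FPKM in treated and 47.4 FPKM in vehicle MKN45. Its difference was 0.15 in HGC27, which turned below 0 under both other scalings, and -0.38 in MKN45, and its fitted log2 fold of -0.11 ± 0.28 did not pass (limma adjusted p = 0.820). The CALR window, chr19:12938359-12938658 on the plus strand, and the HERPUD1 window, chr16:56931892-56932191 on the plus strand, were chosen after their values were seen, as the 2 members with the largest gaps between the lines in response. In CALR the capitals mark the fixed letters of the element, which reads on the opposite strand.
CALR: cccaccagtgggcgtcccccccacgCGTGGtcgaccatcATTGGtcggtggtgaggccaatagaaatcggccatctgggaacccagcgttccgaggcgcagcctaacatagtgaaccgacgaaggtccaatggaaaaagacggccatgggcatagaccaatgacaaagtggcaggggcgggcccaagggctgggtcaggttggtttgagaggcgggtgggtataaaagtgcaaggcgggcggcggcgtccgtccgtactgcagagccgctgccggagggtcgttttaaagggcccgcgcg
HERPUD1: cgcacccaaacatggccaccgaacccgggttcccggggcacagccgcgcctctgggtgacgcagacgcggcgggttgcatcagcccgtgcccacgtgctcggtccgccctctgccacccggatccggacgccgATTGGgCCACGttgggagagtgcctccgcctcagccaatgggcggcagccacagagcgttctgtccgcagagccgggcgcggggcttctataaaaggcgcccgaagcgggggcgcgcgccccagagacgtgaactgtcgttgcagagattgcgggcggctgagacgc

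Disulfide isomerases form and reshuffle the bonds that hold secreted proteins together. P4HB, the founding member of the family, stood at 60.3 FPKM in treated and 37.4 FPKM in vehicle HGC27, and at 61.9 FPKM in treated and 65.3 FPKM in vehicle MKN45. PDIA3, the partner of calreticulin and calnexin, stood at 43.1 FPKM in treated and 25.8 FPKM in vehicle HGC27, and at 83.0 FPKM in treated and 80.4 FPKM in vehicle MKN45, with a pseudogene at up to 15.2 FPKM that could share its reads. PDIA6, which also binds BiP, stood at 105 FPKM in treated and 58.5 FPKM in vehicle HGC27, and at 169 FPKM in treated and 160 FPKM in vehicle MKN45. On the scale as deposited, these 3 had treated over vehicle ratios between 1.61 and 1.79 in HGC27 and between 0.948 and 1.05 in MKN45. The pattern depended on scaling. With quantile normalization the differences of P4HB, PDIA3 and PDIA6 were 0.11, 0.22 and 0.24 in HGC27. In MKN45 they were then -0.45, -0.35 and -0.18. PDIA4 did not share the pattern. It stood at 97.5 FPKM in treated and 85.7 FPKM in vehicle HGC27, and at 66.6 FPKM in treated and 127 FPKM in vehicle MKN45, a ratio of 0.523 (95% counting interval 0.507 to 0.540). None of the 4 passed, with adjusted p from 0.333 to 0.528 (limma).

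ERO1A, the oxidase that recharges disulfide isomerases, had its larger difference in MKN45, unlike most folding genes. It stood at 12.9 FPKM in treated and 10.7 FPKM in vehicle HGC27, and at 56.0 FPKM in treated and 29.9 FPKM in vehicle MKN45 (fitted log2 fold 0.56 ± 0.29, limma adjusted p = 0.237). Its relative ERO1B was at 0.691 and 0.379 FPKM in treated and vehicle HGC27 and at 1.06 and 1.21 FPKM in treated and vehicle MKN45, and was not tested. Across the chaperones, isomerases and oxidases, all 14 genes measured in HGC27 were higher in treated cells, with a median difference of 0.72, where 55.4% of all genes were higher. In MKN45 it was 10 of 15, with a median difference of 0.07, where 53.5% of all genes were higher. With quantile normalization, and likewise with library totals alone, 10 of the 14 were higher in treated HGC27 and 5 of the 15 in treated MKN45. Of all genes, 52.2% and 39.9% were higher in HGC27 under these 2 scalings, and 51.7% and 42.6% in MKN45.

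Of the secreted factors, MANF, an ER-resident protein that is released under stress and protects cells, stood at 17.1 FPKM in treated and 14.9 FPKM in vehicle HGC27, and at 24.3 FPKM in treated and 45.5 FPKM in vehicle MKN45. CRELD2, a secreted ER stress protein, stood at 5.56 FPKM in treated and 4.95 FPKM in vehicle HGC27, and at 4.72 FPKM in treated and 5.82 FPKM in vehicle MKN45. Both were lower after treatment in MKN45 under every scaling run, and neither passed (limma adjusted p = 0.510 and 0.918). Their small differences in HGC27 depended on scaling: 0.19 for MANF became -0.17 with quantile normalization and -0.14 with library totals alone, and 0.14 for CRELD2 became 0.12 and -0.16.

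**Figure D2:**
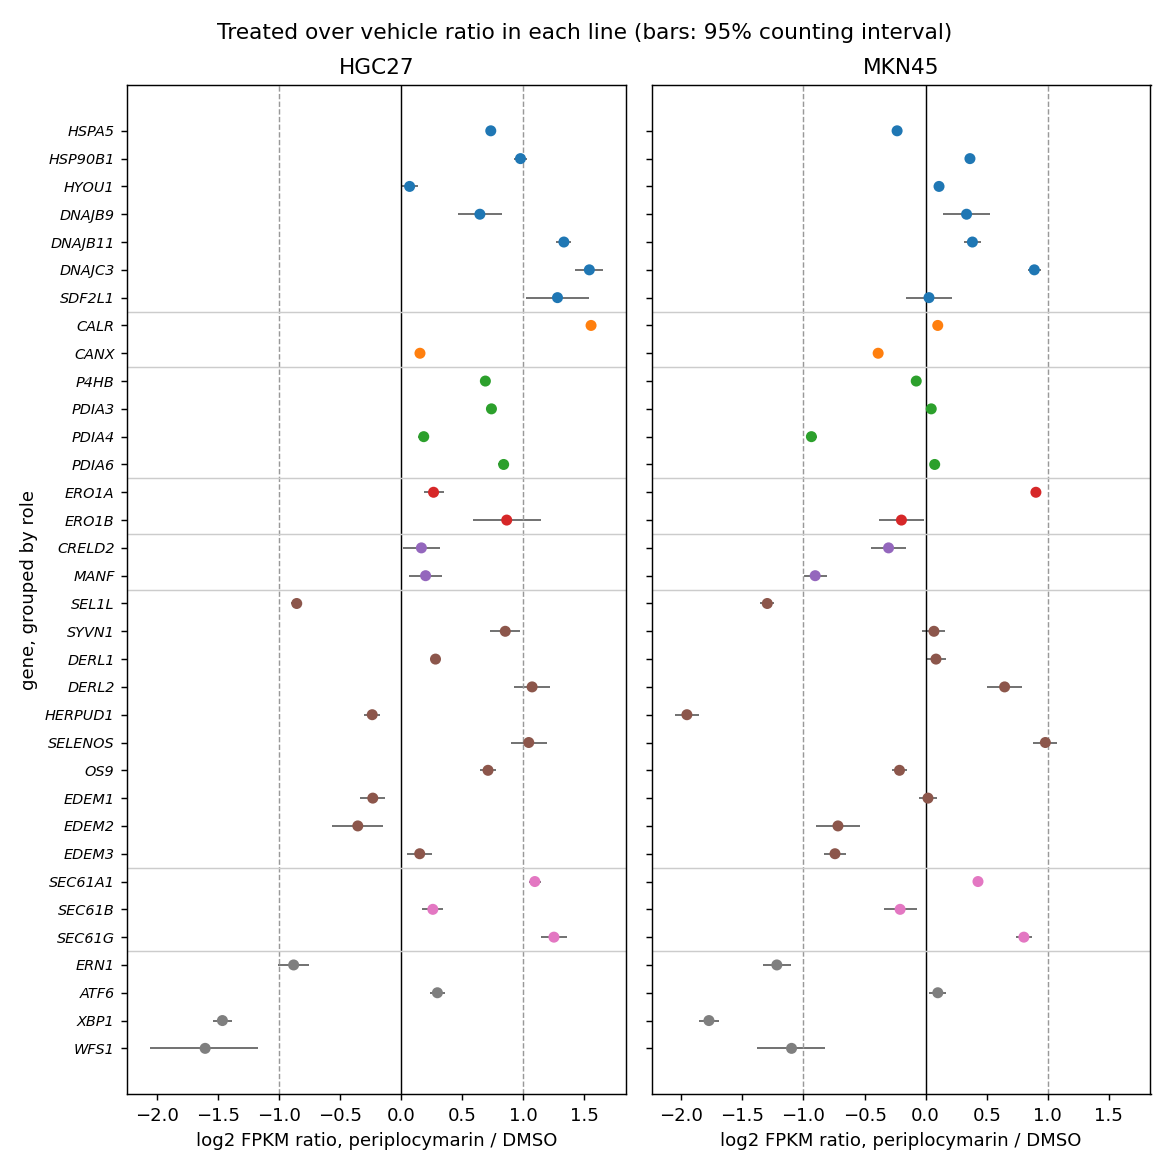
log2 of the treated over vehicle FPKM ratio of 34 ER genes in HGC27 (left) and MKN45 (right), with bars for the 95% counting interval and dashed lines at 2-fold. Colours mark the 8 roles. XBP1, ERN1, SEL1L, HERPUD1, EDEM2 and WFS1 lie left of 0 in both lines, while most folding genes lie right of 0 in HGC27 and near 0 in MKN45.

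ER-associated degradation draws misfolded proteins back through the ER membrane to be ubiquitinated. Its 10 genes tested did not move as a block, with 5 fitted log2 folds above 0 and a median of 0.04, and none passed. SEL1L, the scaffold of the main ubiquitin ligase, stood at 23.0 FPKM in treated and 41.6 FPKM in vehicle HGC27, and at 13.5 FPKM in treated and 33.0 FPKM in vehicle MKN45. Both treated libraries lay below both vehicle libraries, and the fitted log2 fold of -1.03 ± 0.28 just missed the threshold (limma adjusted p = 0.0568). It passed in 6 of 8 other settings, with adjusted p from 0.00600 to 0.828. SYVN1, the ligase that SEL1L holds, was not lower, at 9.46 FPKM in treated and 5.23 FPKM in vehicle HGC27 and at 11.8 FPKM in treated and 11.3 FPKM in vehicle MKN45. The SYVN1 gene overlaps FAU, which stood at 128 and 101 FPKM in treated and vehicle HGC27 and at 127 and 132 FPKM in treated and vehicle MKN45, so its reads may be shared.

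HERPUD1 (ENSG00000051108, hg38 chr16:56932048-56944863, plus strand), a ubiquitin-like ER protein that brings the ligase together with its partners, showed the largest gap between the lines of the 35 genes. It stood at 26.3 FPKM in treated and 31.0 FPKM in vehicle HGC27. In MKN45 it stood at 7.94 FPKM in treated and 30.8 FPKM in vehicle cells, so the 2 vehicle libraries were alike and treated MKN45 stood apart. The ratio was 0.849 in HGC27 (95% counting interval 0.812 to 0.888) and 0.258 in MKN45 (0.241 to 0.276). The fitted log2 fold of -1.03 ± 0.38 did not pass (limma adjusted p = 0.115), and it passed in 3 of 8 other settings.

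SELENOS, a selenoprotein that recruits the extracting ATPase, was higher after treatment, and almost equally in the lines, without passing. It stood at 11.0 FPKM in treated and 5.35 FPKM in vehicle HGC27, and at 21.4 FPKM in treated and 10.9 FPKM in vehicle MKN45, differences of 0.92 and 0.92 (fitted log2 fold 0.92 ± 0.28, limma adjusted p = 0.0720). DERL2, a rhomboid-like protein of the extraction channel, stood at 6.58 FPKM in treated and 3.13 FPKM in vehicle HGC27, and at 5.09 FPKM in treated and 3.25 FPKM in vehicle MKN45. It was likewise higher in both lines without passing (limma adjusted p = 0.155), and its gene overlaps MIS12. Its relative DERL1 stood at 98.6 FPKM in treated and 81.1 FPKM in vehicle HGC27, and at 13.3 FPKM in treated and 12.6 FPKM in vehicle MKN45, a contrast between the lines far larger than that with treatment.

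The lectin-like factors that pick glycoproteins for degradation gave no shared direction. OS9, which reads trimmed sugars, stood at 20.4 FPKM in treated and 12.5 FPKM in vehicle HGC27, and at 15.7 FPKM in treated and 18.2 FPKM in vehicle MKN45. EDEM1, EDEM2 and EDEM3 trim mannose from misfolded glycoproteins. Their differences in HGC27 were -0.21, -0.31 and 0.12, and in MKN45 0.02, -0.65 and -0.59. EDEM2 was the lower in treated cells of both lines, at 6.69 FPKM in treated and 8.56 FPKM in vehicle HGC27 and at 7.77 FPKM in treated and 12.8 FPKM in vehicle MKN45, and did not pass (limma adjusted p = 0.294).

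The SEC61 channel carries new chains into the ER and is built of 3 subunits. SEC61G, the gamma subunit, stood at 44.1 FPKM in treated and 18.5 FPKM in vehicle HGC27, and at 87.9 FPKM in treated and 50.3 FPKM in vehicle MKN45. Its fitted log2 fold of 1.0 ± 0.28 just missed the threshold (limma adjusted p = 0.0590), and it passed in 3 of 8 other settings. SEC61A1, the pore, stood at 34.5 FPKM in treated and 16.1 FPKM in vehicle HGC27, and at 31.7 FPKM in treated and 23.5 FPKM in vehicle MKN45 (fitted log2 fold 0.73 ± 0.29, limma adjusted p = 0.140), and its gene overlaps the expressed genes RUVBL1 and MGLL. SEC61B, the beta subunit, stood at 71.8 FPKM in treated and 60.0 FPKM in vehicle HGC27, and at 24.3 FPKM in treated and 28.1 FPKM in vehicle MKN45, with a fitted log2 fold of 0.03 ± 0.28 that turned below 0 under both other scalings.

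Within HGC27, 6 of the 32 ER genes measured were at least 2-fold higher in treated cells, against 9.72% of all genes measured in that line. They were CALR, DNAJC3, DNAJB11, SEC61G, SDF2L1 and SEC61A1. XBP1 was the only 1 of the 32 at least 2-fold lower (10.4% of all genes). Of the 32, 26 were higher by any amount, against 55.4%. High-level genes as a whole leaned upward in this line: among genes averaging 10 FPKM or more, 19% were higher by 2-fold or more, 3.59% lower by 2-fold or more and 76.7% higher by any amount, against 5, 1 and 19 of the 22 ER genes at that level. With quantile normalization, and with library totals alone, 2 of the 32 were higher by 2-fold or more and 2 lower by as much. The shares of all genes past 2-fold under these scalings are not given here. Their median difference was 0.04 and -0.18, so the background moved as well.

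Within MKN45, 0 of the 34 ER genes measured were at least 2-fold higher in treated cells, against 8.21% of all genes measured in that line. The 3 at least 2-fold lower were HERPUD1, XBP1 and SEL1L (8.94% of all genes). By any amount 18 of the 34 were higher, against 53.5%. Among genes averaging 10 FPKM or more the background was 13.9% higher by 2-fold or more, 4.78% lower by 2-fold or more and 70.8% higher by any amount, against 0, 3 and 15 of the 26 ER genes at that level. With quantile normalization 5 of the 34 were at least 2-fold lower, and with library totals alone 6. The shares of all genes past 2-fold under these scalings are not given here, and the median difference of all genes was 0.03 and -0.12. The median difference of the ER genes was 0.42 in HGC27 and 0.02 in MKN45, beside 0.11 and 0.07 for all measured genes and 0.46 and 0.35 for those that averaged 10 FPKM or more across the libraries.

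The difference was larger in HGC27 than in MKN45, by which is meant higher on the signed scale, for 29 of the 32 ER genes measured in both lines. The share was 52.3% for all 10071 genes measured in both lines. The exceptions were ERO1A, EDEM1 and HYOU1. Among genes averaging 10 FPKM or more in both lines it was 19 of 21 ER genes, against 60.6%. The median gap between the lines was 0.52 for the ER genes, 0.03 for all genes and 0.15 for genes at that level. With 1 library per line and treatment the gap itself could not be tested, and the genes share the same 4 libraries, so a single library could shift many of them at once. Under quantile normalization and under library totals alone the count was 28 of 32, against 49.7% and 45.4% of all genes.

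**Figure D3:**
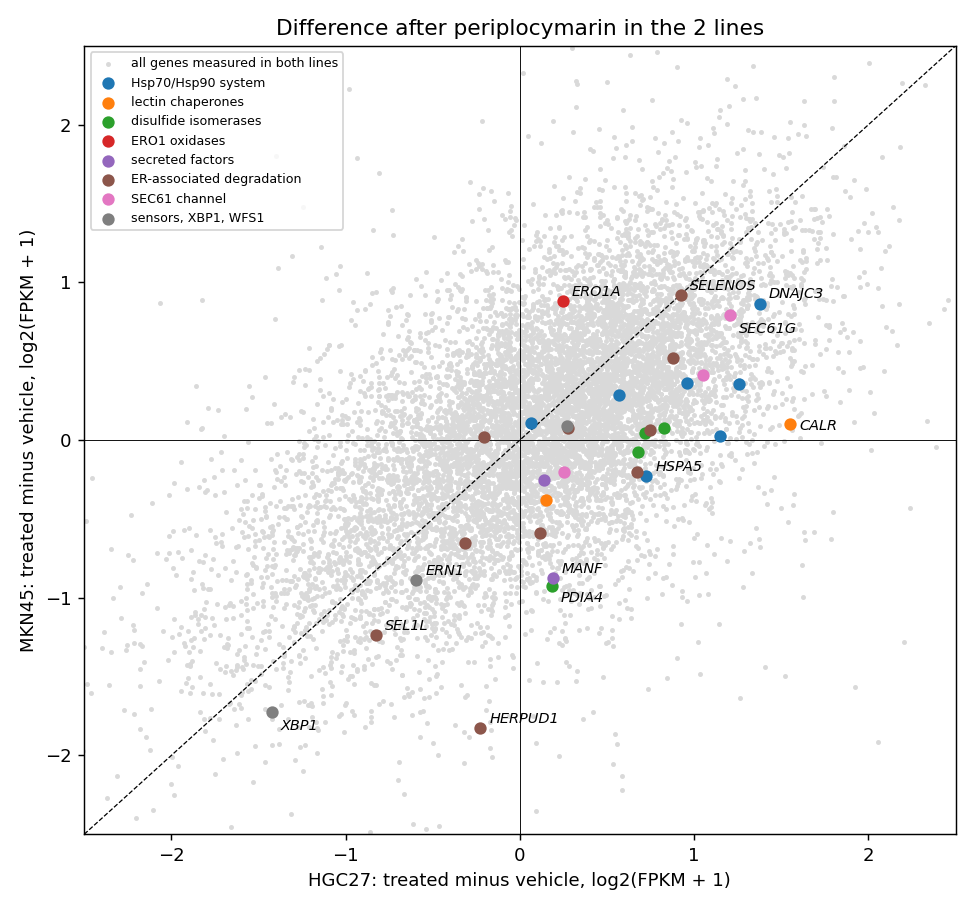
Treated minus vehicle difference on the log2(FPKM + 1) scale in HGC27 (horizontal) and MKN45 (vertical) for ER genes (coloured by role) and 10071 genes measured in both lines (grey), with a dashed line of equality. 68 grey genes lie outside the axes. Of the 32 ER genes, 29 lie below the line of equality, and XBP1 lies at the lower left.

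On the scale as deposited, the levels of the ER genes in HGC27 and MKN45 were close in treated cells and lower in HGC27 in vehicle cells. In treated cells 17 of the 32 were higher in HGC27 than in MKN45, against 49.5% of all genes, 4 of them by 2-fold or more (11.6%), and 3 were lower by 2-fold or more (13.9%). In vehicle cells 7 of the 32 were higher in HGC27 than in MKN45, against 48% of all genes, 2 of them by 2-fold or more (8.16%), and 9 were lower by 2-fold or more (11.7%). The median HGC27 minus MKN45 level was 0.11 in treated cells and -0.55 in vehicle cells, beside -0.01 and -0.04 for all genes. Summed over the 35 genes, the level was 1592 FPKM in treated and 992 FPKM in vehicle HGC27, and 1334 FPKM in treated and 1390 FPKM in vehicle MKN45. Without CALR the sum was 1073 FPKM in treated and 815 FPKM in vehicle HGC27, and 1137 FPKM in treated and 1207 FPKM in vehicle MKN45. The whole table summed to 265631 FPKM in treated and 237962 FPKM in vehicle HGC27, and to 307211 FPKM in treated and 334085 FPKM in vehicle MKN45. The total was thus also lower in HGC27 than in MKN45, in vehicle and in treated cells. Set against these totals, the sum of the 35 genes was nearly alike in vehicle HGC27 and vehicle MKN45. In treated cells it was then higher in HGC27 than in MKN45. The contrast between the lines in level therefore depends on scaling, and these levels were not compared under the other scalings. These level contrasts and the gap in response come from the same 4 libraries and are not separate evidence.

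Direction was shared between the lines about as often as over all genes, for 68.8% of the 32 ER genes against 72.9%. Of the 32, 17 were higher after treatment in both lines (44.5% of all genes), 5 were lower in both (28.4%) and 10 went opposite ways (27.1%). The 5 lower in both were XBP1, SEL1L, HERPUD1, EDEM2 and ERN1. These counts depended on scaling, with 7 higher in both and 12 lower in both with quantile normalization (39% and 31.5% of all genes), and 8 and 15 with library totals alone (29.9% and 41.7%). Across the 32 genes the differences in the lines had Pearson's r = 0.767 and Spearman's rho = 0.740, beside 0.607 and 0.60 across all 10071 genes, as a description over genes that share libraries.

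The neighbouring list of the PERK arm and integrated stress response was mixed. Of its 12 tested genes 4 fell and 1 rose, with a median fitted log2 fold of -0.81. The folds ran from -3.37 to 1.23, with 4 of the 12 above 0. As above, 3.17% of all genes tested fell and 3.43% rose, or 1.82% and 8.02% of those averaging 10 FPKM or more, and these shares are the background for this and each further list. TRIB3, a pseudokinase induced by ATF4 and CHOP, stood at 5.56 FPKM in treated and 115 FPKM in vehicle HGC27, and at 8.18 FPKM in treated and 54.3 FPKM in vehicle MKN45 (fell by 3.37 ± 0.37, limma adjusted p = 0.00683). CHAC1, an enzyme that breaks down glutathione, fell by 2.61 ± 0.40, CEBPB, a transcription factor, by 1.84 ± 0.33, and SESN2, a nutrient sensor, by 1.34 ± 0.28. The gene that rose was PPP1R15B, a subunit of a phosphatase that opposes the PERK signal, by 1.12 ± 0.28, and it did not pass under either other scaling. The 4 genes that fell passed under both. With limma-voom on recovered reads 3 of the 12 rose and 4 fell, against 857 and 668 of all 12353 genes tested. ATF4 itself had a fitted log2 fold of -0.07 ± 0.27 and DDIT3, which encodes the death-linked factor CHOP, of -1.09 ± 0.28, just short of the threshold (limma adjusted p = 0.0502). Of 10 other ER membrane sensors and transcription factors tested 1 fell, CREB3L4, and none rose, with a median of -0.46. PPP1R15B, CREB3L4, ATF4, DDIT3, TMEM129 and ORAI3 lie outside the rule for names and were named after their values were seen.

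Genes that deliver and modify new chains had mostly positive folds. Of 22 tested genes of signal recognition, translocation and signal peptide cleavage 4 rose and none fell. Their median fitted log2 fold was 0.53, with 20 above 0 (0 rose with quantile normalization and 3 with library totals alone). Of all 12353 genes tested 6667 were above 0, and of the 4453 averaging 10 FPKM or more 3317 were. SPCS2, a subunit of signal peptidase, stood at 60.2 FPKM in treated and 14.6 FPKM in vehicle HGC27, and at 92.3 FPKM in treated and 43.5 FPKM in vehicle MKN45 (rose by 1.52 ± 0.31, limma adjusted p = 0.0289). Both subunits of the signal recognition particle receptor rose, SRPRA by 1.43 ± 0.27 and SRPRB by 1.25 ± 0.27, and so did SSR3 of the translocon-associated complex, by 1.1 ± 0.27. The calls of SPCS2, SRPRA and SRPRB ended with quantile normalization and that of SSR3 under both other scalings. Of 12 subunits and partners of oligosaccharyltransferase 1 rose, OSTC by 1.13 ± 0.29 (limma adjusted p = 0.0499), with a median of 0.62. The call ended under both other scalings, where the median was 0.21 with quantile normalization and 0.34 with library totals alone. On the scale as deposited, the medians of 0.53 and 0.62 stand beside 0.38 for all genes averaging 10 FPKM or more. The other scalings also moved the background: the median of all genes tested was 0.06 as deposited. It was 0.02 with quantile normalization and -0.16 with library totals alone, so 0.21 and 0.34 are not to be set against 0.38.

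Among other folding genes few passed. Of 16 other disulfide isomerases 1 rose, TMX1, a membrane-bound member, by 1.15 ± 0.28, with a median of 0.57, a call that ended with quantile normalization. Of 7 ER prolyl isomerases 1 rose, FKBP14, by 1.74 ± 0.28, with a median of 0.25 for the list, and it passed under both other scalings. Of 11 other ER co-chaperones and of 7 glycan trimming and folding genes none passed, with medians of 0.23 and 0.27. MLEC, a lectin that binds glucose on new glycans, stood at 30.5 FPKM in treated and 9.23 FPKM in vehicle HGC27, and at 78.9 FPKM in treated and 58.2 FPKM in vehicle MKN45, without passing (limma adjusted p = 0.0847).

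Of 20 other degradation genes 1 rose and 1 fell (TMEM129), with a median of 0.47. The gene that rose was AUP1, a membrane factor that recruits a ubiquitin-conjugating enzyme, by 1.29 ± 0.28 (limma adjusted p = 0.0329), and its call ended with quantile normalization while that of TMEM129 held under both. Of 21 genes of vesicle export and retrieval 1 rose, SAR1A, a GTPase that starts COPII coats, by 1.15 ± 0.28, a call that ended under both other scalings. Of 10 genes listed for ER calcium handling 1 rose and 1 fell, with a median of 0.03. ATP2A2, the calcium pump that fills the ER, rose by 1.28 ± 0.27. ORAI3, which averaged under 10 FPKM, fell, with a fitted log2 fold of -1.30, or -2.33 with a pseudocount of 0.1. Both calls ended with quantile normalization. Of 8 ER-phagy genes and of 6 mRNAs reported as targets of IRE1 decay none passed, with medians of -0.47 and 0.00. The ER-phagy receptor CCPG1 was lower in both lines, at 7.81 FPKM in treated and 17.2 FPKM in vehicle HGC27 and at 11.8 FPKM in treated and 21.7 FPKM in vehicle MKN45 (limma adjusted p = 0.0695).

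For the chaperones outside the ER, 1 of 13 cytosolic heat shock genes rose and 1 fell, with a median of 0.04. HSPA8, the constitutive Hsp70 of the cytosol, stood at 34.9 FPKM in treated and 108 FPKM in vehicle HGC27, and at 61.0 FPKM in treated and 201 FPKM in vehicle MKN45 (fell by 1.65 ± 0.27, limma adjusted p = 0.0237). HSPA5, its counterpart in the ER, had a fitted log2 fold of 0.25 ± 0.31. HSPA4, an exchange factor for cytosolic Hsp70, rose by 1.06 ± 0.27, a call that ended under both other scalings, whereas HSPA8 passed under both. All calls among these neighbouring lists were lost without the low-value filter and without the line block, settings in which no gene of the table passed.

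**Figure D4:**
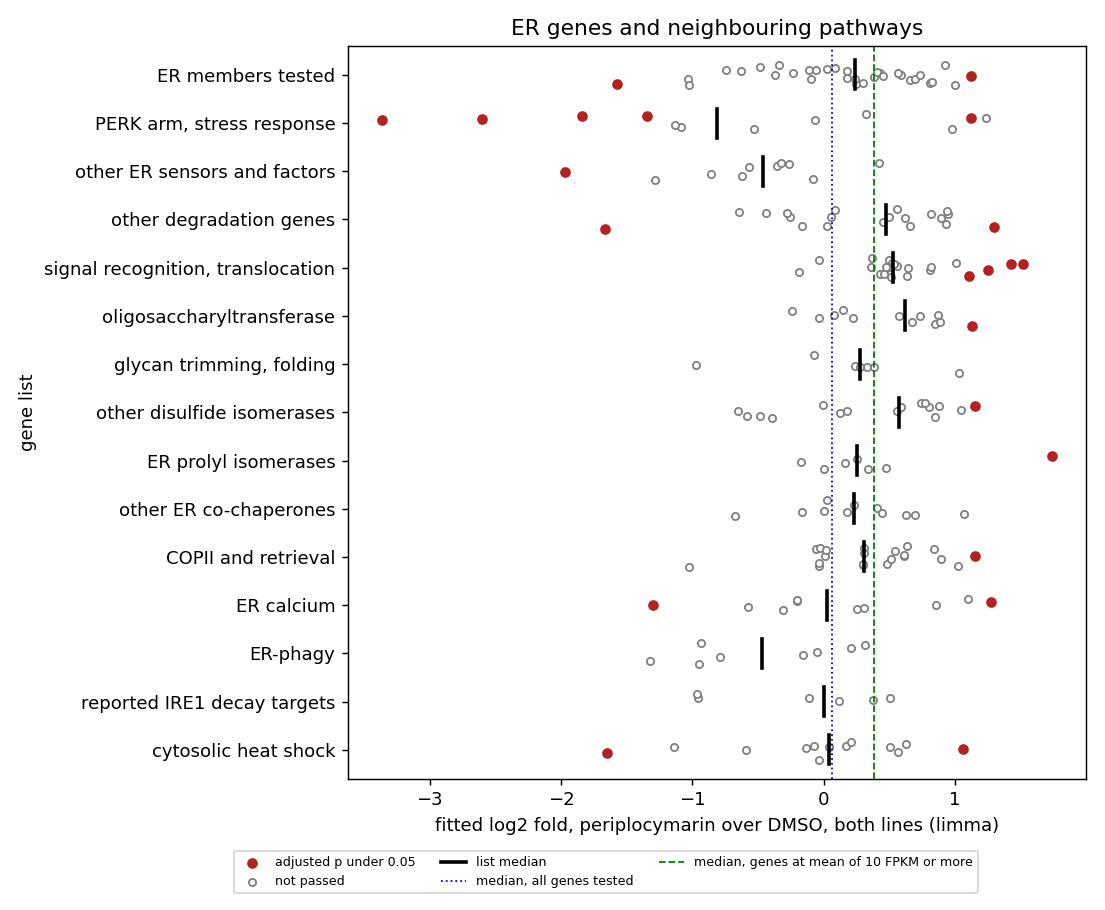
Fitted log2 fold over both lines, periplocymarin over DMSO (limma on log2(FPKM + 1)), for each gene of the ER members and 14 neighbouring lists. Red points passed at an adjusted p under 0.05, open points did not, black bars are list medians, and the vertical lines are the medians of all genes tested (0.06) and of genes averaging 10 FPKM or more (0.38). The PERK list has its median at -0.81 and the oligosaccharyltransferase list at 0.62.

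Read sharing limits some values. Of the 35 genes, 24 overlap another gene model, 21 of them a model on the opposite strand, and no strand setting is given in the sources used here. XBP1, HSPA5, SEL1L, SELENOS and MANF overlap none. The overlapping gene reached 10 FPKM in at least 1 library for 5 of the 35, namely DNAJB9, SYVN1, DERL1, DERL2 and SEC61A1.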

How the data were processed

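Messenger RNA libraries of HGC27 and MKN45 cells, 1 per line and treatment, came as 1 table of 62710 Ensembl genes, and groups were taken from the sample titles. Tools and builds named in the submitters' processing notes are fastp 2.0, HISAT2 2.1.0 and hg38, without their roles. For the gene counter, the annotation and the strand setting, the sources used here state nothing. The deposited values bear no unit name, and their steps are those of FPKM with a composition factor between libraries, which is inferred. Whole reads were recovered from the steps between low values (tolerance 0.0001 reads): 15204 of 30457 genes above 0 were whole at their GENCODE 29 length (49.9%), and of the 20299 genes above 0 in 3 or 4 libraries 20298 came out whole when the length was searched. These reads, 24744919 for treated HGC27, 26562903 for vehicle HGC27, 27467083 for treated MKN45 and 36187299 for vehicle MKN45, gave depth, counting intervals (Clopper-Pearson, 95%) and an alternative test.

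The test over both lines was limma 3.58.1 in R 4.3.3 (lmFit, eBayes with trend) on log2(FPKM + 1), blocked on cell line, over genes averaging 1 FPKM and 10 recovered reads or more, checked on simulated data. The design named a count test for counts and limma for other units, and limma was used since the file holds FPKM. The 35 genes, the lists and the alternatives were chosen with earlier results of these data known. All 35 genes were described. From each neighbouring list at most 4 genes past the test and averaging 10 FPKM or more were named, those of largest fitted fold, or at most 2 where none passed. Promoter windows came from RefSeq on GRCh38.p14, and Python 3.11.15 with SciPy 1.17.1 was used.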

Additional observations from a re-analysis of the deposited data

Results flagged for a closer look

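For 9 of the 35 ER genes the treated minus vehicle difference on the log2(FPKM + 1) scale was above 0 in HGC27 and below 0 in MKN45, with a counting interval clear of no change in each line. Signs were opposite between the lines for 10 of the 32 ER genes measured in both, against 27.1% of all genes. With quantile normalization 5 of the 9 kept opposite signs, and CANX, PDIA4, MANF and SEC61B had differences below 0 in both lines. With library totals alone HSPA5, P4HB and OS9 kept them, and the other 6 were below 0 in both lines. The gap between the lines was not tested, because each line has 1 library per treatment. The HGC27 minus MKN45 gap was 0.96 for HSPA5, the Hsp70 of the ER, and 0.53 for CANX, a lectin chaperone. It was 0.75 for P4HB and 1.11 for PDIA4, both disulfide isomerases. The secreted factors CRELD2 and MANF had gaps of 0.39 and 1.07. The degradation factors OS9 and EDEM3 had gaps of 0.87 and 0.70, and SEC61B of the translocation channel had 0.46.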

How the results depend on the processing

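Of the 33 ER genes tested, 1 rose and 1 fell. The counts that rose and fell were 0 and 3 with quantile normalization, 0 and 3 with library totals alone, 0 and 0 without the low-value filter (4 and 2 at an unadjusted p under 0.05), 5 and 3 with a floor of 10 FPKM (24 genes), 2 and 2 with a pseudocount of 0.1, 2 and 2 with genes above 0 in at least 3 libraries (a setting chosen after seeing the data), 0 and 0 without the line block (0 and 1 unadjusted), and 1 and 2 with limma-voom on recovered reads. For all genes, 424 rose and 392 fell. These became 180 and 351 with quantile normalization, 356 and 1161 with library totals alone, 0 and 0 without the filter (1910 and 2396 unadjusted), 1055 and 199 with the floor, 750 and 730 with the pseudocount, 621 and 578 with the 3-library setting, 0 and 0 without the block (432 and 264 unadjusted), and 857 and 668 with limma-voom. With quantile normalization the fitted log2 folds of 8 genes turned below 0: HSPA5 -0.23, HYOU1 -0.31, P4HB -0.17, PDIA3 -0.065, DERL1 -0.22, OS9 -0.085, SEC61B -0.45 and ATF6 -0.0085. With library totals alone 6 did: HSPA5 -0.040, HYOU1 -0.19, DERL1 -0.10, OS9 -0.039, SEC61B -0.26 and ATF6 -0.082. None of these passed in any setting run. Members at least 2-fold higher in HGC27 numbered 2 under either scaling, against 6, and those at least 2-fold lower 2 under either, against 1. In MKN45 those at least 2-fold lower numbered 5 with quantile normalization, 6 with library totals alone and 5 with the pseudocount of 0.1, against 3. The shares of all genes past 2-fold in these settings are not given here, so a shift of the ER genes cannot be told from one of all genes. The larger difference lay in HGC27 for 19 of 21 genes at the floor of 10 FPKM, against 29 of 32. Fewer genes were tested at the floor and more without the filter, and otherwise the cause was not tested. The main test is itself paired by cell line, with the setting without the line block as its unpaired counterpart, and the labels give no replicate numbers. Leaving out a line leaves 1 library per arm and no test. Counting error over the ER genes measured in each line (log2 half-width) had a median of 0.07 in each and was at most 0.26 in HGC27 and 0.28 in MKN45. WFS1 and ERO1B, under the measured level in HGC27, had wider log2 intervals there, -2.06 to -1.17 and 0.59 to 1.15. Depth thus limits few of these values, while replication limits all of them.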

Other observations

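DERL1 stood at 81.1 FPKM in vehicle HGC27 and at 12.6 FPKM in vehicle MKN45, and the genes around it were high in HGC27 as well. Of the 32 genes within 5 Mb of DERL1 that reached 10 FPKM in either vehicle library, 29 were higher in vehicle HGC27 than in vehicle MKN45 and 28 were at least 2-fold higher, with a median HGC27 minus MKN45 level of 2.85 on the log2(FPKM + 1) scale. Over all 5103 genes at that level 2278 were higher in HGC27 and 706 at least 2-fold higher, with a median of -0.14. DERL1 itself is among the 32, and a gene could enter through its level in vehicle HGC27 alone, a filter that the 5103 genes share. The DERL1 position was the only one examined in this way, so these counts only describe it.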
